A study of Mus musculus with 14 samples.

Results

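Gliosis is the response of macroglia to injury, inflammation or low oxygen in nervous tissue, and 10 genes named for this response were examined: *Gfap*, *Vim*, *Nes*, *Lcn2*, *Serpina3n*, *Cp*, *Edn2*, *Fgf2*, *Stat3* and *Osmr*. They were chosen by name with earlier results of these data known, and all 10 were among the 28316 genes of the retina matrix and the 26528 genes of the brain matrix. Macroglia of the retina are Müller glia, which span the neural retina, and astrocytes, which lie with the superficial blood vessels. In gliosis these cells build up intermediate filaments. Cytokines of the gp130 family, of which oncostatin M is a member, act through surface receptors and JAK kinases on the transcription factor STAT3, which is required for much of the astrocytic response, and stressed photoreceptors are known to release endothelin 2 and to make FGF2.

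Nuclei of whole mouse retinas and of brain vascular fragments were profiled by snRNAseq after EC-specific loss of *Tgfbr1*, a TGF-beta receptor. There were 11 retina libraries of *Cdh5CreER;Tgfbr1 CKO/-* mice, called CKO, against 1 of controls, and in the brain 1 library of each genotype. CKO mice carried a Cre recombinase driven in ECs by the *Cdh5* promoter and received 4-hydroxytamoxifen between P3 and P5. The minus in their genotype denotes a *Tgfbr1* allele that is missing in all cells, not in ECs alone. Its part in any difference cannot be told apart from that of the loss in ECs. Controls are recorded as wild type, while the paper describes its controls as phenotypically WT and typically *Cdh5CreER;Tgfbr1 CKO/+*, and neither source says whether they received 4-hydroxytamoxifen. The paper gives the age of the nuclei as P14, and the deposited labels as young adult. Each brain library pooled vascular fragments of 2 brains, and how many mice went into each retina library is not stated. The control retina, CKO replicates 1 to 7 and both brain libraries were made with version 4 (PLUS) of the PIPseq kit, and CKO replicates 8 to 11 with version 5.

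The control retina held 11513 nuclei and 30989702 unique molecular identifiers (UMIs), and the CKO retinas between 104 and 18862 nuclei and between 90449 and 55803724 UMIs. The control brain held 49798325 UMIs and the CKO brain 31033373. Levels are counts per 1e6 UMIs (CPM), as UMIs of a gene over those of all nuclei with the same cell type label in the same library, and a library entered a comparison with at least 10 nuclei of the label. The labels are those of the authors, and the genes described here could have contributed to the clusters behind them.

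Several libraries stood apart. CKO replicate 4 had 104 nuclei, of which 2 were Müller glia, 0 were astrocytes and 0 were rods, so it entered no comparison of these labels. Per the paper, doublets were removed with SOLO and possible mixed nuclei by hand, and clusters were also removed by hand from replicates 4 and 5. The batch that held the control also held CKO replicates 1 to 3, replicates 4 and 5 formed another batch, and replicates 6 to 11 a further one. *Xist*, which is transcribed from the inactive X chromosome of females, was at 6779 CPM in the control, at 5577 to 6823 CPM in CKO replicates 1, 2, 4 and 7, and at 0.365 to 12.9 CPM in the other 7 CKO libraries. In the brain it was at 1963 CPM in the control and 1.29 CPM in the CKO, so sex and genotype cannot be told apart there. Of 77666 retinal barcodes 10 occurred in 2 libraries, as did 2 of 31322 in the brain.

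With all labels summed, *Tgfbr1* itself had a level of 89.0 CPM in the control retina and of 71.4 to 87.0 CPM in the CKO libraries other than replicate 4, which had 365 CPM. In brain ECs, the cells in which Cre acts, it was at 69.1 CPM in the control and 62.9 CPM in the CKO. Counts over a whole gene do not test the deletion, and ECs are not among the retinal labels.

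The labels were checked against marker genes. Over the retinal labels, nuclei labeled Müller glia had the highest level of 6 of 8 Müller glia markers, with *Slc1a3* and *Sox9* higher in astrocytes. Nuclei labeled retinal astrocytes were highest for 5 of 7 markers, with *Gfap* at 1283 CPM, *Pax2* at 740 CPM, *Pdgfra* at 744 CPM, *S100b* at 269 CPM and *Gja1* at 85.9 CPM, and were second for *Slc39a12*, at 4.88 CPM against 27.2 CPM in GABAergic amacrine cells, and for *Aldh1l1*, at 6.84 CPM against 29.7 CPM in Müller glia. In the brain, the astrocyte label was highest for 5 of 8 markers, among them *Slc1a2* at 10774 CPM and *Aqp4* at 458 CPM. Müller glia made up 3072 nuclei, retinal astrocytes 232 and brain astrocytes 1586.

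Müller glia were compared between the control library, with 402 nuclei and 1511111 UMIs, and 10 CKO libraries with 121 to 690 nuclei. In these cells *Osmr*, *Stat3*, *Gfap*, *Vim* and *Cp* were higher in each of the 10 CKO libraries than in the control. *Fgf2* and *Edn2* were higher in 9 of 10, *Nes* in 8, and *Serpina3n* and *Lcn2* in 7. Mean CKO levels were 1.42 times the control for *Cp* and 4.37 times the control for *Osmr*, with the other genes that had control UMIs in between.

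*Osmr* (chr15:6843053-6904450, minus strand) encodes the oncostatin M receptor, which signals with gp130. It was at 21.8 CPM (33 UMIs) in control Müller glia and, over the CKO libraries, at 47.8 CPM in the lowest, 104 CPM in the median and 134 CPM in the highest. Every CKO library lay above the control, with replicate 3 lowest and replicate 8 highest. The CKO mean was 95.5 CPM ± 29.1 (SD, n = 10), and the ratio of pooled counts was 4.82 with a 95% interval of 3.42 to 7.04, which covers counting error only. Within the control's batch the CKO mean was 71.8 CPM over 3 libraries.

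*Stat3* (chr11:100775924-100830450, minus strand), the transcription factor on which gp130 receptors act, was at 65.5 CPM (99 UMIs) in the control and at 104, 145 and 223 CPM in the lowest, median and highest CKO library. No CKO library reached down to the control, and replicates 2 and 6 were the highest. The CKO mean of 156 CPM ± 41.4 (SD, n = 10) was 2.38 times the control, and the CKO libraries of the control's batch averaged 159 CPM. *Stat5a* overlaps *Stat3* on the other strand, and whether counting was by strand is not given. In Müller glia *Stat5a* was at 2.65 CPM in the control and 3.25 CPM in the CKO mean.

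Filament genes came next. *Gfap* (chr11:102778159-102791738, minus strand) encodes the intermediate filament protein by which astrocytes are recognized and which Müller glia make in gliosis. It was at 11.9 CPM (18 UMIs) in control Müller glia and at 22.6, 37.5 and 97.2 CPM in the lowest, median and highest CKO library. CKO replicates 5 and 2 were highest, at 97.2 and 88.0 CPM, and no other CKO library exceeded 43.3 CPM. The 18 control UMIs came from 2 of 402 nuclei, with 17 in 1 nucleus, so the control level and the pooled ratio of 4.33 rest on few nuclei. In the CKO libraries 9 to 148 nuclei held *Gfap* UMIs, and the mean within the control's batch was 51.8 CPM.

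*Vim* (chr2:13578738-13587639, plus strand), the filament protein that Müller glia also hold at rest, was at 47.6 CPM (72 UMIs) in the control and at 58.2, 117 and 167 CPM in the lowest, median and highest CKO library. The groups did not overlap, and replicates 7, 2, 6 and 3 formed the lower part of the CKO range, at 81.7 CPM or less. *Nes* (chr3:87878385-87887758, plus strand) encodes nestin, a filament protein of progenitors and reactive glia. It was at 3.97 CPM (6 UMIs) in the control and at 0, 13.0 and 22.2 CPM in the lowest, median and highest CKO library. CKO replicates 7 and 3 lay below the control, so the groups overlapped.

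The secreted and acute-phase genes differed widely in how many UMIs lay behind them. *Cp* (chr3:20011090-20063930, plus strand) encodes ceruloplasmin, a ferroxidase that lets iron leave cells. It was at 1036 CPM (1565 UMIs) in the control and at 1043, 1360 and 2062 CPM in the lowest, median and highest CKO library. The lowest CKO library, replicate 7, was just above the control, and replicates 1 and 6 were highest. The CKO mean of 1468 CPM ± 315 (SD, n = 10) was 1.42 times the control, and *Hps3*, which overlaps *Cp*, was at 34.4 CPM in the control and 35.3 CPM in the CKO mean. *Serpina3n* (chr12:104372810-104380597, plus strand), a secreted inhibitor of serine proteases, had 0 UMIs in the control and 0, 3.77 and 9.34 CPM in the lowest, median and highest CKO library. Its CKO mean was at least 1.65-fold higher than a floor of 3 UMIs in the control library. *Lcn2* (chr2:32274645-32278264, minus strand), which encodes the iron-siderophore carrier lipocalin 2, had 0 UMIs in the control and 0 to 7.97 CPM in the CKO libraries, with 3 of 10 at 0. The CKO mean of 1.85 CPM, or 1.17 CPM without replicate 3, was under the control's floor of 1.99 CPM, so a difference was not detectable at this depth.

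Both ligand genes were at low levels in Müller glia. *Fgf2* (chr3:37402473-37464257, plus strand) encodes basic fibroblast growth factor, which promotes photoreceptor survival. It was at 23.2 CPM (35 UMIs) in the control and at 21.4, 53.6 and 92.3 CPM in the lowest, median and highest CKO library. Replicate 7 alone lay below the control, and the pooled ratio was 2.39 (95% interval 1.70 to 3.46). *Edn2* (chr4:120018403-120024557, plus strand) encodes endothelin 2, a peptide that acts on receptors of vessels and glia. It had 0 UMIs in the control and was at 0, 5.87 and 21.5 CPM in the lowest, median and highest CKO library. Replicate 3 had 0 UMIs like the control, and the CKO mean was at least 3.42-fold higher than the control's floor, where the counting interval of the pooled ratio started at 2.75. CKO means were higher in rods, at 25.7 CPM for *Edn2* and 119 CPM for *Fgf2*. Rod markers summed to 4140 CPM in control and 3917 CPM in CKO Müller glia. The part of rod RNA in the levels of both ligand genes in Müller glia was not tested.

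**Figure D1:**
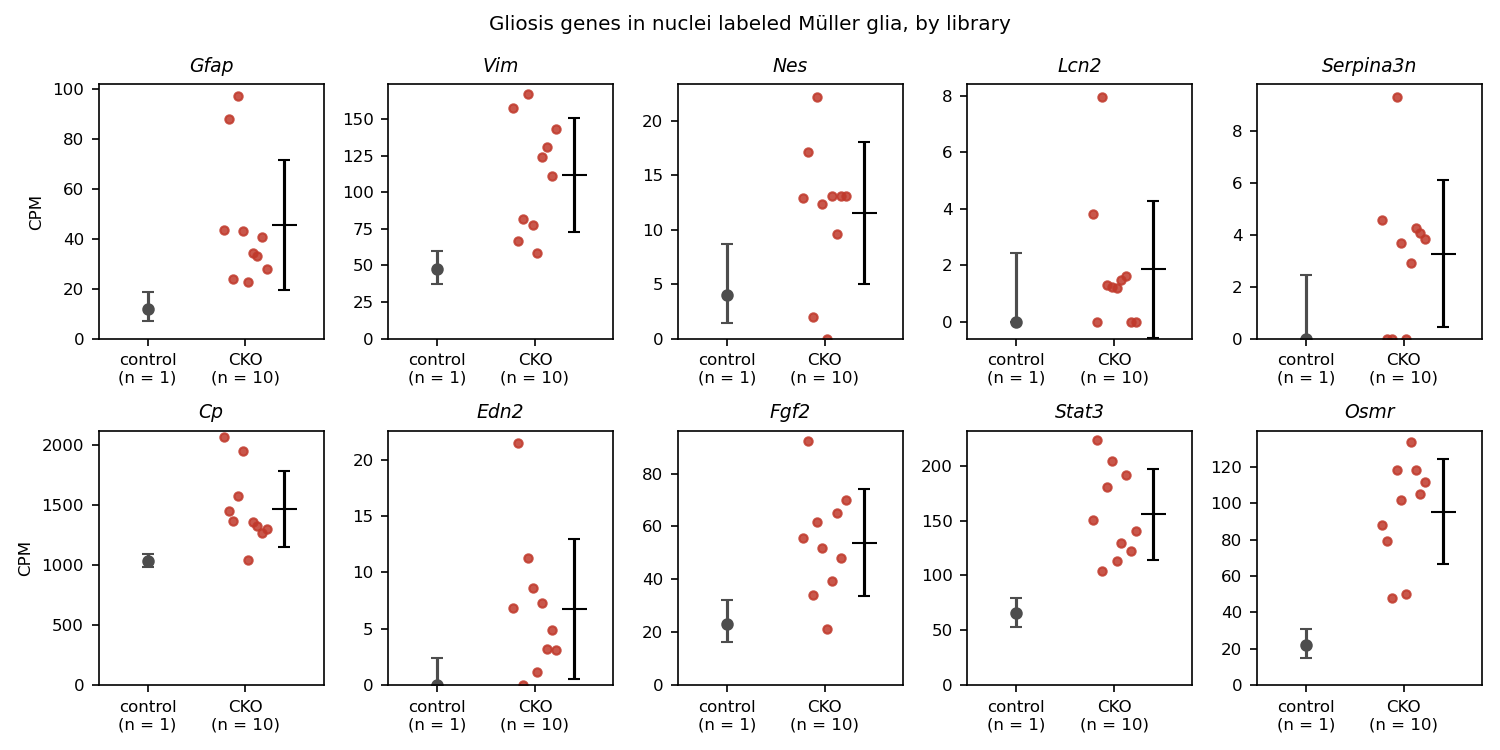
Levels of the 10 gliosis genes in nuclei labeled Müller glia, in CPM on the y axis, with the control library as a point with its 95% exact Poisson interval (n = 1) and each CKO library as a point beside the CKO mean and SD (n = 10). Every CKO library is above the control for *Gfap*, *Vim*, *Cp*, *Stat3* and *Osmr*.

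The same CKO libraries recurred at either end of the range. CKO replicate 7 was among the lowest 3 libraries for 9 of the 9 genes that could be tested and was the lowest for 5, and replicate 3 was among the lowest 3 for 7 and the lowest for 3. CKO replicate 5 was among the highest 3 for 7 of 9 and replicate 2 for 5 of 9, but replicate 2 was also among the lowest 3 for 3 of 9. Over the CKO libraries with *Xist* like the control's, a grouping added after the data had been seen, mean levels were 72.5 CPM for *Osmr*, 162 CPM for *Stat3*, 51.3 CPM for *Gfap*, 94.0 CPM for *Vim*, 1519 CPM for *Cp* and 56.4 CPM for *Fgf2*.

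Across all genes, edgeR quasi-likelihood tests with the kit as a covariate covered 14170 genes in Müller glia, and 9 gliosis genes passed the filter on low counts, which *Lcn2* failed. At an adjusted p under 0.05, 0 of these 9 genes were called, beside 2 of all genes (0.0141%). At an unadjusted p under 0.05, 863 genes passed in either direction, and 5 of 9 gliosis genes passed and were higher in CKO beside 586 of all genes (4.14%). They were *Osmr*, *Stat3*, *Edn2*, *Gfap* and *Serpina3n*. Each CKO library was above the control for 5 of 9 gliosis genes and for 1255 of all genes (8.86%). The fitted log2 fold change was above 0 for 9 of 9 gliosis genes and for 53.4% of all genes. Its median was 1.56 for the gliosis genes and 0.04 for all genes, or 1.28 and 0.04 with genes at 0 in the control set to their lower bound. The filter favors genes that are high in the CKO libraries, since these outnumber the control, and *Edn2* and *Serpina3n*, at 0 in the control, could pass it through them alone.

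Single fits were as follows. For *Osmr* the log2 fold change was 1.89 (SE 0.46) with an edgeR p of 0.00106, an adjusted p of 0.491 and an adjusted p between 0.00313 and 1.00 over the 21 alternative settings. For *Stat3* it was 1.28 (SE 0.39) with an edgeR p of 0.00583, an adjusted p of 0.599 and a range of 0.0446 to 1.00. DESeq2 called 106 genes, 94 of them higher in CKO, and both *Osmr* (adjusted p = 0.00313) and *Stat3* (adjusted p = 0.0446) were among them. *Gfap* had a log2 fold change of 2.15 (SE 0.81) with an edgeR p of 0.0233 and an adjusted p of 0.750, and *Fgf2* one of 1.14 (SE 0.56) with an edgeR p of 0.0647 and an adjusted p of 0.859. All 9 tested gliosis genes had a positive log2 fold change under each of the 21 alternatives, which all reuse the same control library. The 2 genes that edgeR called, named after their values had been seen, were *Gm17167* with a log2 fold change of -2.80 (adjusted p = 3.63e-06) and *Zfp951* with one of -2.41 (adjusted p = 0.0235).

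Exact two-sided permutation tests of 1 control against 10 CKO libraries cannot give a p below 0.0909, and this was the value for *Osmr* and for *Stat3*. The permutation p was larger for the other gliosis genes, *Gfap*, *Vim* and *Cp* among them. With 1 control library, its own variation and the genotype cannot be told apart, and the fits assume that it varies like the CKO libraries. Without replicate 7 edgeR called 7 genes and without replicate 10 it called 4, none of them a gliosis gene. The count was 1 without replicate 2, 5, 9 or 11.

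The share of Müller glia with *Gfap* UMIs was compared at equal depth, since median UMIs per nucleus were 3172 in the control and 1824 to 8948 in the CKO libraries. With each nucleus thinned to 1000 UMIs, 2 of 369 control nuclei had a *Gfap* UMI, a share of 0.542% (95% exact interval 0.0657% to 1.94%). The CKO share was 4.55% ± 2.53 (SD, n = 10), between 1.38% and 9.70%. At this depth each CKO library was above the control (exact permutation p = 0.273 for 1 against 10 libraries), while at 500 UMIs the shares were 0.253% and 2.05% and 9 of 10 were above, and at 2000 UMIs 0.313% and 6.32% with 10 of 10. At 1000 UMIs the mean of the CKO libraries within the control's batch was 5.96%. Without thinning the shares were 0.498% and 11.8%. Thinning left out 454 of the nuclei, with 369 of 402 kept in the control and 2247 of 2668 in the CKO libraries. Rods, with a median of 961 UMIs in the control and no known *Gfap* expression, gave 0% in the control and 0.0557% in the CKO mean at the same depth, and 0% and 0.184% without thinning.

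Shares of Müller glia thinned to 1000 UMIs were also compared for other gliosis genes. *Osmr* was found in 1.90% of control nuclei and in 10.5% ± 3.59 (SD, n = 10) of CKO nuclei, above the control in 10 of 10 libraries. *Stat3* was found in 5.42% and 12.2%, above the control in 10 of 10, but at 500 UMIs in 4.80% and 6.64%, above it in 7 of 10. Without thinning these shares were 6.97% and 30.9% for *Osmr*, and 19.9% and 40.5% for *Stat3*. *Cp* was found in 63.7% of thinned control nuclei and in 67.0% of CKO nuclei, above the control in 7 of 10 libraries. At 500 UMIs its shares were 39.1% and 48.8% and at 2000 UMIs 79.6% and 85.7%, above the control in 10 of 10 at both depths, and without thinning 89.8% and 89.5%, above it in 6 of 10. The share of *Vim* was above the control in 10 of 10 at 1000 UMIs, 8 at 500 UMIs, and 9 at 2000 UMIs and without thinning. For *Fgf2* it was above in 9 of 10 at 2000 UMIs and in 10 of 10 otherwise. *Nes* was at 0.505% and 0.499% at 500 UMIs, above the control in 5 of 10, and in 7 to 8 otherwise. *Edn2* was above the control in 9 of 10 without thinning, but in 3 to 5 of 10 with thinning.

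Markers of other cells were read in the same sums. The 6 retinal astrocyte markers other than *Gfap* summed to 26.5 CPM in control Müller glia and to 49.8 CPM ± 9.17 (SD, n = 10) in CKO, above the control in 10 of 10 libraries. Most of this sum was *Aldh1l1*, which is higher in Müller glia than in astrocytes, at 19.9 CPM in the control and 32.1 CPM in CKO. The other 5 summed to 6.62 CPM (10 UMIs) in the control and 17.6 CPM ± 6.48 (SD, n = 10) in CKO, also above it in 10 of 10, led by *Pdgfra* at 0 and 10.4 CPM. Of these 10 control UMIs 9 were of *S100b*, which went the other way, from 5.96 to 3.40 CPM, and was above the control in 1 of 10. Bipolar cell markers summed to 473 and 573 CPM and oligodendrocyte precursor markers to 15.9 and 25.3 CPM, each above the control in 9 of 10. Mural markers summed to 64.9 and 50.2 CPM and RPE markers to 412 and 364 CPM, each above it in 1 of 10. Müller glia's own markers summed to 4877 and 4399 CPM, above the control in 2 of 10, immune markers to 49.0 and 51.9 CPM and rod markers to 4140 and 3917 CPM. Without nuclei that held a UMI of these astrocyte or immune markers, the log2 fold change of *Gfap* in Müller glia was 1.84 (SE 0.58), beside 2.15 with them. Since the set holds *Aldh1l1*, this also left out Müller glia that express it, keeping 314 of 402 nuclei in the control and 1858 of 2668 in CKO, and the part of astrocyte RNA in the level of *Gfap* was not tested.

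Retinal astrocytes were few, with 12 nuclei and 31274 UMIs in the control and 11 to 61 nuclei in the 8 CKO libraries compared. CKO replicates 3, 4 and 11, with 6, 0 and 8 astrocytes, were left out. *Gfap*, *Vim*, *Cp*, *Fgf2* and *Stat3* were higher in each of the 8 CKO libraries than in the control. *Osmr* was higher in 7 of 8, *Serpina3n* in 6, *Nes* and *Lcn2* in 5 and *Edn2* in 2.

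*Gfap* was at 95.9 CPM in control astrocytes, from 3 UMIs, and at 617, 980 and 3028 CPM in the lowest, median and highest CKO library. All 8 CKO libraries were above the control, with replicates 2, 5 and 1 highest, and replicates 3 and 11, left out for their few nuclei, had 389 and 1217 CPM. The pooled ratio was 14.2, with a wide 95% interval of 4.85 to 69.0. *Vim*, with 1 UMI in the control, was at 32.0 CPM there and at 108, 447 and 815 CPM in the lowest, median and highest CKO library. Its groups did not overlap among the 8 libraries compared, but of those left out replicate 3 had 0 CPM, below the control, and replicate 11 had 585 CPM. The pooled ratio of *Vim* was 16.0 (95% interval 2.86 to 634). *Nes*, also with 1 control UMI, ranged from 0 to 269 CPM in the CKO libraries, and its pooled ratio of 1.92 had an interval of 0.331 to 77.3.

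*Cp* had more counts behind it. It was at 895 CPM (28 UMIs) in control astrocytes and at 1841, 4079 and 6999 CPM in the lowest, median and highest CKO library. Every CKO library lay above the control, with replicate 10 lowest and replicate 2 highest. The CKO mean of 4277 CPM ± 1657 (SD, n = 8) was 4.78 times the control, the pooled ratio was 4.57 (95% interval 3.16 to 6.88), and the 2 libraries of the control's batch averaged 5477 CPM.

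*Stat3*, with 3 UMIs in the control, was at 95.9 CPM there and at 202, 253 and 342 CPM in the lowest, median and highest CKO library. The groups did not overlap, but the 95% interval of the pooled ratio of 2.95 ran from 0.998 to 14.4. *Fgf2* had 0 UMIs in the control and was at 78.0, 121 and 144 CPM in the lowest, median and highest CKO library. Its CKO mean of 115 CPM was above the control's floor of 95.9 CPM, but the counting interval of the pooled ratio started at 0.921, so a difference was not detectable at this depth. *Osmr* also had 0 control UMIs, with 0, 87.4 and 404 CPM in the lowest, median and highest CKO library. Its mean was 125 CPM, and 85.4 CPM and so under the floor without replicate 2, and the interval of its pooled ratio started at 0.817, so a difference was not detectable either. *Serpina3n*, at 0 in the control and 109 CPM ± 89.1 (SD, n = 8) in CKO, was at least 1.13-fold higher than the floor, with an interval that started above 1, but its mean was 86.5 CPM and under the floor without replicate 5. *Lcn2* had a CKO mean of 55.5 CPM, under the floor, and of 21.5 CPM without replicate 5, and *Edn2* had 3 UMIs over all CKO libraries.

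**Figure D2:**
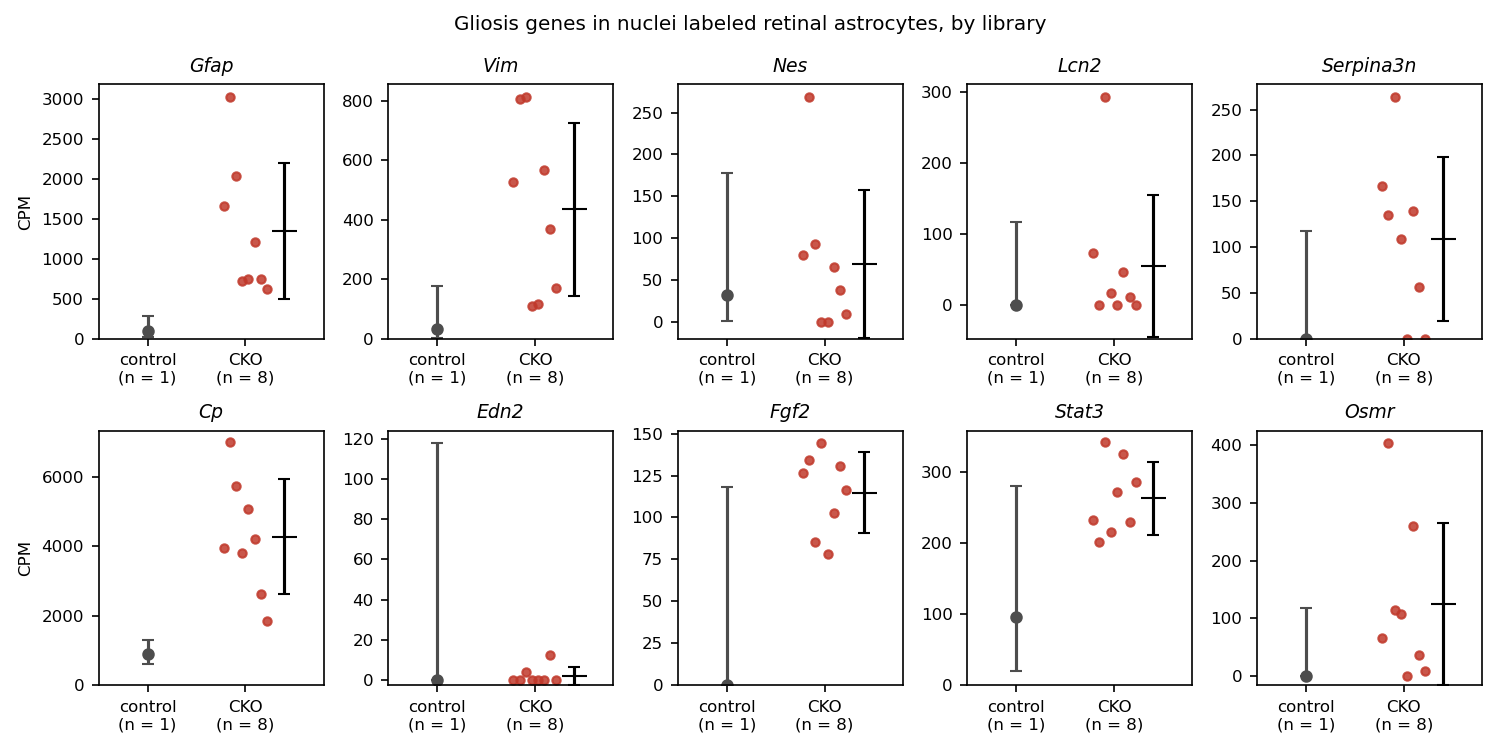
Levels of the 10 gliosis genes in nuclei labeled retinal astrocytes, in CPM on the y axis, with the control library as a point with its 95% exact Poisson interval (n = 1) and the 8 CKO libraries as points beside their mean and SD. The control rests on 12 nuclei, and *Gfap*, *Vim*, *Cp*, *Fgf2* and *Stat3* are above it in each CKO library.

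Of 5971 genes tested by edgeR quasi-likelihood in retinal astrocytes, 0 were called at an adjusted p under 0.05 (0%), which includes 0 of the 9 gliosis genes that passed the filter. At an unadjusted p under 0.05, 351 genes passed in either direction, and DESeq2 called 1 gene, *Cp*. For 3 of 9 gliosis genes, *Gfap*, *Cp* and *Fgf2*, the unadjusted p was under 0.05 with a fitted log2 fold change above 0, as for 224 of all genes (3.75%). Each CKO library was above the control for 5 of 9 gliosis genes and for 735 of all genes (12.3%). *Fgf2*, with 0 control UMIs, could pass the filter through the CKO libraries alone and is in both counts, although its difference was not detectable by the counting interval. The fitted log2 fold changes of all genes had a median of 0.42, which was -0.17 with the genes at 0 in the control set to their lower bound. For the gliosis genes the median was 4.02, or 1.25 with 4 of them at their bound.

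The log2 fold change of *Cp* was 2.47 (SE 0.52), beside the median of 0.42 for all genes, with an edgeR p of 7.96e-05 and an adjusted p of 0.158. Over 14 alternative settings its adjusted p ran from 0.00939, without replicate 8, to 0.909, and it was 0.0238 by DESeq2. *Gfap* had a log2 fold change of 4.02 (SE 0.93) with an edgeR p of 4.25e-04 and an adjusted p of 0.247. Its adjusted p ran from 0.00722, with no filter on low counts, to 0.681, and was 0.00883 with the batch in place of the kit, a setting added after seeing the data. For *Stat3* the edgeR p was 0.0668 and for *Vim* 0.0657. Exact two-sided permutation tests of 1 against 8 libraries cannot go below 0.111, which was the p for *Stat3* and for *Fgf2*. The permutation p was larger for the other gliosis genes, *Gfap*, *Vim* and *Cp* among them. Without replicate 8 edgeR called 4 genes, without replicate 9 it called 3, and without replicate 1 or 6 it called 1.

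Other cells' markers differed between the groups within this label. The 6 retinal astrocyte markers other than *Gfap* summed to 3102 CPM in control astrocytes and to 1760 CPM ± 437 (SD, n = 8) in CKO, below the control in 8 of 8 libraries. Fibroblast markers, led by *Col1a2*, summed to 0 CPM in the control and 322 CPM in CKO, and mural markers, led by *Rgs5*, to 95.9 and 510 CPM, each above the control in 8 of 8. Bipolar cell markers summed to 608 and 1946 CPM, also above the control in 8 of 8, and oligodendrocyte markers to 128 and 23.2 CPM, below it in 8 of 8. Rod markers, led by *Sag*, summed to 959 and 2375 CPM, and microglial markers to 64.0 and 49.1 CPM. Their part in the levels of *Gfap*, *Vim* and *Cp* was not tested.

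Outside the glia, levels were compared over the 11 retinal labels. *Edn2* had 0 UMIs among all 30989702 control UMIs and 2944 over the CKO libraries, which together hold more UMIs than the control. Its CKO mean was highest in rods, at 25.7 CPM, followed by immune cells at 11.1 CPM and cones at 8.25 CPM, and in astrocytes it was 2.02 CPM from 3 UMIs, or 0.532 CPM without replicate 9. The libraries of neighboring labels in this order overlapped.

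*Fgf2* had 306 control UMIs and 12830 over the CKO libraries, again from a larger total, so these counts are not levels. Its CKO means were 119 CPM in rods, 115 CPM in astrocytes, 53.9 CPM in Müller glia, 45.1 CPM in cones, 43.5 CPM in immune cells and 19.5 to 29.6 CPM in the other 6 labels. It was higher in each CKO library than in the control in 7 of 11 labels, and in 9 without CKO replicate 4, which enters the comparison of ganglion cells, with 25 nuclei, and of immune cells, with 65. *Stat3* was found in every label, with CKO means from 74.2 CPM in GABAergic amacrine cells to 264 CPM in astrocytes, and with rods at 222 CPM, immune cells at 210 CPM and cones at 200 CPM. In 9 of 11 labels each CKO library was above the control for *Stat3*, and in 10 without replicate 4, which had 0 *Stat3* UMIs in ganglion cells.

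Filament and receptor genes were high in fewer labels. *Gfap* had CKO means of 1346 CPM in astrocytes, 45.4 CPM in Müller glia and 8.71 CPM in horizontal cells, and the libraries of astrocytes and of Müller glia did not overlap. *Vim* was at 435 CPM in astrocytes, 277 CPM in horizontal cells and 112 CPM in Müller glia, and in horizontal cells the control, at 324 CPM, was above the CKO mean. *Osmr* was at 125 CPM in astrocytes, 95.5 CPM in Müller glia and 9.51 CPM in horizontal cells, with overlapping libraries in the first 2. *Cp* was at 4277 CPM in astrocytes and 1468 CPM in Müller glia, which overlapped, and at 102 CPM in horizontal cells. *Serpina3n*, *Nes* and *Lcn2* were highest in astrocytes, at 109, 69.2 and 55.5 CPM, and next in Müller glia, at 3.27, 11.5 and 1.85 CPM. In astrocytes the mean of *Nes* was 40.6 CPM without replicate 2, and that of *Lcn2* 21.5 CPM without replicate 5. These orders describe labels that come from clusters of the same counts and were not tested.

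**Figure D3:**
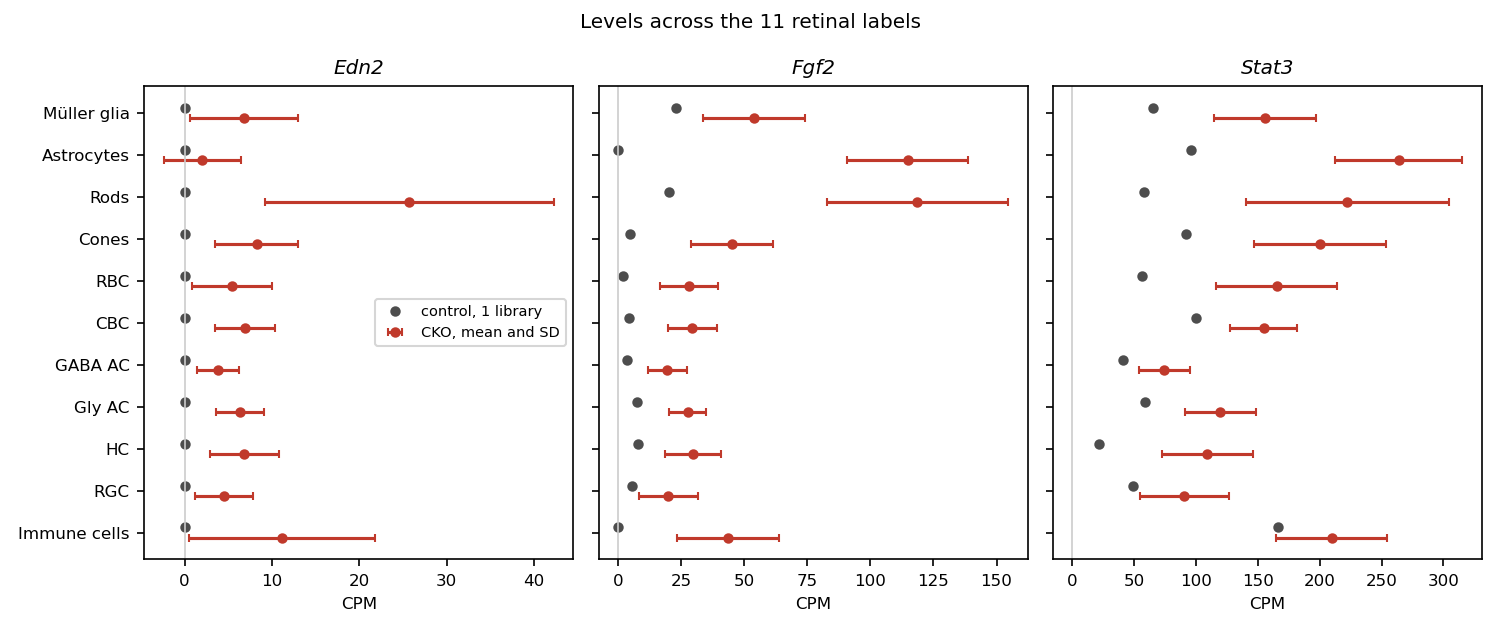
Levels of *Edn2*, *Fgf2* and *Stat3* in the 11 retinal labels, in CPM on the x axis, with a point for the control (1 library) and the mean and SD of the CKO libraries. *Edn2* is at 0 in the control in each label and highest in CKO rods.

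Rods gave the most counts. *Edn2* had 0 of 8604043 UMIs in control rods and 1868 UMIs in the 10 CKO libraries, at 8.80, 18.8 and 65.4 CPM in the lowest, median and highest. All CKO libraries were above the control, with replicate 5 far above the rest, and the CKO mean was at least 73.7-fold higher than the control's floor. *Fgf2* was at 20.3 CPM (175 UMIs) in control rods and at 76.4, 114 and 199 CPM in the lowest, median and highest CKO library. The groups did not overlap, and the CKO mean of 119 CPM ± 35.9 (SD, n = 10) was 5.83 times the control. *Stat3* was at 58.0 CPM (499 UMIs) and at 142, 204 and 375 CPM in the lowest, median and highest CKO library, again without overlap, with a mean 3.83 times the control. In the control's batch the CKO means were 26.5 CPM for *Edn2*, 111 CPM for *Fgf2* and 221 CPM for *Stat3*. *Gfap*, *Vim*, *Nes*, *Lcn2*, *Serpina3n*, *Cp* and *Osmr* had CKO means of 0.176 to 3.39 CPM in rods, with overlapping groups. *Nudt6*, which overlaps *Fgf2* on the other strand, was at 4.53 CPM in control rods and 10.8 CPM ± 2.30 (SD, n = 10) in CKO, above the control in 10 of 10 libraries, and its part in the counts of *Fgf2* was not tested.

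A fit of rods, added after these levels had been seen, tested 15750 genes, and edgeR quasi-likelihood called 0 of them (0%) and 0 of the 6 gliosis genes that passed the filter. At an unadjusted p under 0.05, 427 genes passed in either direction, and DESeq2 called 225, *Edn2*, *Fgf2* and *Stat3* among them. These 3 genes also had an unadjusted edgeR p under 0.05 with a higher CKO level, beside 245 of all genes (1.56%), and lay above the control in each CKO library, beside 537 of all genes (3.41%). *Edn2* and *Gfap*, at 0 in control rods, could pass the filter through the CKO libraries alone. The median log2 fold change was 2.08 for the 6 gliosis genes and -0.01 for all genes, or 1.60 and -0.01 with genes at 0 in the control at their bound. *Fgf2* had a log2 fold change of 2.71 (SE 0.52), an edgeR p of 2.80e-04 and an adjusted p of 0.441. For *Edn2* the edgeR p was 8.93e-05 and the adjusted p 0.248, and for *Stat3* they were 0.00273 and 1.00. Without replicate 7 edgeR called 5 genes in rods, and without replicate 6 it called 1. In fits of the other 8 retinal labels, added at the same time, edgeR called 0 gliosis genes, with the lowest adjusted p at 0.160 for *Edn2* in glycinergic amacrine cells. Of all genes it called 2 of 11676 in cones, 1 of 17222 in GABAergic and 2 of 16312 in glycinergic amacrine cells, and 0 in the others.

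The same 3 genes were found in more CKO rods at equal depth. With nuclei thinned to 500 UMIs, *Edn2* was found in 0% of control rods and 1.30% of CKO rods, between 0.395% and 3.23% over 10 libraries. The shares were 1.02% and 5.35% for *Fgf2*, and 2.74% and 9.86% for *Stat3*, each above the control in 10 of 10 libraries. Without thinning they were 0% and 3.42% for *Edn2*, 2.39% and 14.7% for *Fgf2*, and 6.62% and 23.5% for *Stat3*. Thinning left out 5905 rods, with 5760 of 6621 kept in the control and 29355 of 34399 in CKO.

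Brain astrocytes were compared between 942 control nuclei with 1362484 UMIs and 644 CKO nuclei with 505508 UMIs. With 1 library per genotype no test was possible, and intervals cover counting error only. *Xist* was at 4481 CPM in control astrocytes and 0 CPM in CKO astrocytes, so sex and genotype cannot be told apart in these ratios. *Gfap*, *Stat3* and *Cp* were more than 2 times as high in the CKO library, and *Fgf2* differed by less than its counting error. The other 6 genes had fewer than 20 UMIs over both libraries.

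*Gfap* was at 235 CPM in the control (320 UMIs) and 588 CPM in the CKO (297 UMIs), a ratio of 2.50 (95% interval 2.13 to 2.94). *Cp* was at 22.8 CPM (31 UMIs) and 83.1 CPM (42 UMIs), a ratio of 3.65 (2.24 to 6.01). *Stat3* was at 45.5 and 123 CPM, with 62 UMIs in each library and a ratio of 2.70 (1.86 to 3.90). For these 3 genes the interval lay above 1. *Fgf2* was at 23.5 and 33.6 CPM, and its ratio of 1.43 had an interval of 0.746 to 2.66. *Osmr*, with 9 and 7 UMIs, had a ratio of 2.10 and an interval of 0.663 to 6.33, so a difference was not detectable at this depth. *Serpina3n* had 0 control UMIs and 6 in the CKO, and the interval of its ratio started at 3.17. *Vim* had 4 and 0 UMIs and *Nes* 3 and 0, while *Lcn2* and *Edn2* had 0 in both.

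Of 5769 genes with at least 20 UMIs over both libraries, 508 had a ratio above 2 (8.81%) and 884 a ratio below 1/2 (15.3%). Among the 4 gliosis genes with that many UMIs, 3 had a ratio above 2 and 0 a ratio below 1/2. The median log2 ratio was 1.38 for the 4 genes and 0.00 for all genes. By size of ratio *Cp* ranked 91, *Stat3* 221, *Gfap* 280 and *Fgf2* 1306 among the 5769 genes. Scaling by TMM factors moved the median ratio of all genes from 0.988 to 0.838 and gave ratios of 2.12 for *Gfap*, 3.10 for *Cp* and 2.28 for *Stat3*. With nuclei of at least 1000 UMIs alone, the ratio of *Gfap* was 4.27 where the median of all genes was 1.22, and 1288 genes had a ratio above 2 and 515 a ratio below 1/2.

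Depth and other cells differed between the brain libraries too. The median was 1151 UMIs per control astrocyte and 579 per CKO astrocyte. Within the label, astrocyte markers summed to 16572 CPM in the control and 16932 CPM in the CKO, mural markers to 156 and 63.3 CPM, microglial markers to 44.0 and 79.1 CPM, and oligodendrocyte markers to 116 and 309 CPM. Without nuclei that held at least 2 UMIs of endothelial, mural or microglial markers, the ratios were 2.45 for *Gfap*, 5.34 for *Cp* and 3.42 for *Stat3*. The part of oligodendrocyte RNA was not tested.

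**Figure D4:**
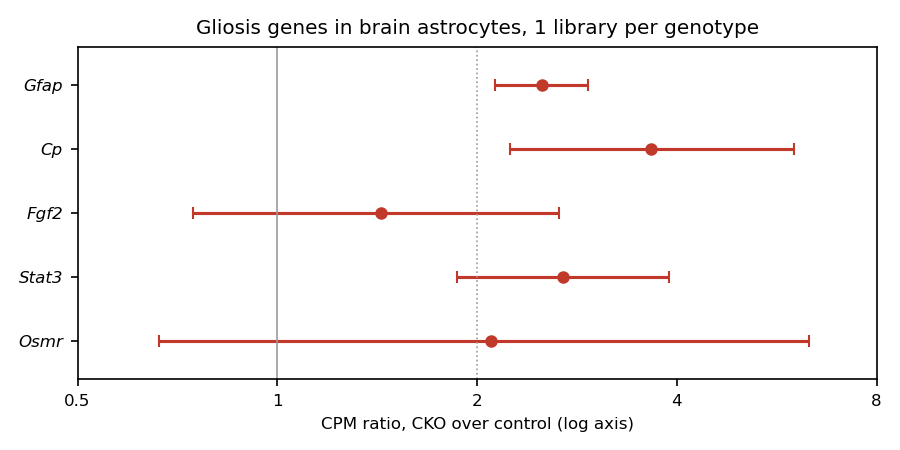
Ratios of CPM in CKO over control brain astrocytes for *Gfap*, *Cp*, *Fgf2*, *Stat3* and *Osmr*, on a log axis with 95% exact conditional binomial intervals, for 1 library per genotype. The solid line marks a ratio of 1 and the dotted line a ratio of 2, and the intervals of *Gfap*, *Cp* and *Stat3* lie above 1.

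Over the 21 brain labels, astrocytes were highest for *Gfap*. *Vim* was highest in vascular smooth muscle cells, at 850 CPM in the control and 813 CPM in the CKO, and was at 465 and 776 CPM in ECs. *Nes* was at 348 and 334 CPM in ECs. *Osmr* was at 236 CPM in control ECs and 156 CPM in CKO ECs, and in pericytes at 451 CPM from 55 UMIs in the control and 217 CPM from 2 UMIs in the CKO. *Cp* was highest in pericytes, at 665 CPM from 81 UMIs and 1194 CPM from 11 UMIs. These vascular cells are enriched by the preparation, and the levels describe 1 library per genotype.

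Other genes of the same pathways were counted in lists, none of which had a gene called by edgeR in Müller glia or retinal astrocytes. Of all genes tested in Müller glia, 4.14% had an unadjusted p under 0.05 with a higher CKO level. Of 14 tested genes of the gp130 cytokine pathway, through which oncostatin M acts, 2 had an unadjusted p under 0.05 with a higher level in CKO Müller glia, and the median log2 fold change was 0.30, or 0.23 with genes at 0 in the control at their bound. These 2, named after their values had been seen, were *Il6ra* and *Bcl3*. Both were at 0 in the control and could pass the filter through the CKO libraries alone. *Il6st*, which encodes gp130, was at 62.9 CPM in the control and 65.9 CPM ± 11.0 (SD, n = 10) in CKO, and the kinase gene *Jak1* at 110 and 120 CPM. Of 12 FGF pathway genes, 4 had such a p, with a median of 0.40. One of them, *Spred1*, an inhibitor of RAS signaling, was at 167 CPM in the control and 292 CPM ± 69.8 (SD, n = 10) in CKO, above the control in 10 of 10 libraries. Of 3 endothelin pathway genes tested, 0 had such a p, and *Ece1*, which encodes a peptidase that makes mature endothelins, was at 35.1 and 24.2 CPM.

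Among 7 genes of iron handling, which *Cp* serves too, 3 had an unadjusted p under 0.05 with a higher level in CKO Müller glia, and the median log2 fold change was 1.16 beside 0.04 for all genes. Transferrin, encoded by *Trf*, was at 15.2 CPM in the control and 63.2 CPM ± 22.6 (SD, n = 10) in CKO, between 33.9 and 97.5 CPM. It was above the control in 10 of 10 libraries, with a log2 fold change of 2.22, an edgeR p of 0.00139 and an adjusted p of 0.491. *Fth1*, the ferritin heavy chain, was at 17.2 and 45.4 CPM, also above the control in 10 of 10, and *Heph*, a ferroxidase like ceruloplasmin, at 39.0 and 39.1 CPM. Among 4 filament and linker genes, 2 had such a p, with a median of 1.62, or 1.32 with bounds. Of the 4 genes, 1 was at 0 in the control and could pass the filter through the CKO libraries alone. *Synm*, whose product joins filaments of *Vim* and *Gfap* products, was at 3.97 CPM in the control and 16.9 CPM ± 6.34 (SD, n = 10) in CKO, above the control in 10 of 10.

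Lists of reactive astrocyte genes were split by type. In Müller glia, 2 of 3 pan-reactive, 3 of 5 A1 and 0 of 5 A2 genes had an unadjusted p under 0.05 with a higher CKO level, with medians of 0.73 (0.23 with bounds), 2.71 (2.42 with bounds) and 0.04. Of the genes tested, 1 pan-reactive and 1 A1 gene were at 0 in the control and could pass the filter through the CKO libraries alone. The A1 gene with the most UMIs, *Fkbp5*, was at 43.0 CPM in the control and 39.1 CPM in the CKO mean, and the A2 gene with the most, *Sphk1*, at 15.9 and 12.8 CPM. The fitted log2 fold change was above 0 for 5 of 5 A1 genes, so for *Fkbp5* the fit and the means differed in direction. *Cd44*, a pan-reactive gene for a hyaluronan receptor, was at 69.5 CPM in the control and 136 CPM ± 37.8 (SD, n = 10) in CKO, above the control in 10 of 10. Of 11 homeostatic Müller glia genes 1 had such a p, with a median of -0.18. That gene, *Sox2*, was at 16.5 and 38.1 CPM, while *Glul*, for glutamine synthetase, was at 970 and 989 CPM. *Hes1*, a Notch target, was at 945 CPM in the control and 542 CPM ± 234 (SD, n = 10) in CKO, below the control in 10 of 10, with a log2 fold change of -0.45 and an edgeR p of 0.0995. Of 8 homeostatic astrocyte genes, 1 had such a p, *Aldh1l1*, and the median was -0.09.

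In retinal astrocytes 1 iron gene, *Trf*, and 1 pan-reactive gene, *Cd44*, had an unadjusted edgeR p under 0.05 with a higher CKO level. Of 8 homeostatic Müller glia genes tested, 1, *Hes1*, had one with a lower level. Of all 5971 genes, 351 had such a p in either direction and 224 (3.75%) with a higher level. *Trf* and *Cd44* had 0 UMIs in the control and means of 206 and 176 CPM in CKO, and could pass the filter through the CKO libraries alone. The 3 pan-reactive genes tested were all at 0 in the control, and their median log2 fold change was 6.21 as fitted and -0.40 at their bounds. *Hes1* was at 863 CPM in the control and 298 CPM ± 161 (SD, n = 8) in CKO, below it in 8 of 8. Of the gp130, FGF, endothelin and filament lists, with 5, 8, 1 and 2 genes tested, 0 genes had such a p. The same held for the A1, A2 and homeostatic astrocyte lists, with 2, 1 and 6 genes tested.

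Over all genes in brain astrocytes 8.81% had a ratio above 2 and 15.3% a ratio below 1/2. Of the list genes, 1 pan-reactive gene, *Aspg*, had a ratio above 2, at 8.62 (95% interval 3.02 to 30.1) from 5 and 16 UMIs. Ratios below 1/2 were found for *Jak1* of the gp130 list at 0.491, *Ednra* of the endothelin list at 0.415, *Heph* of the iron list at 0.159 (0.0498 to 0.385) and *Fkbp5* of the A1 list at 0.239 (0.152 to 0.360). Of 9 FGF, 9 homeostatic Müller glia and 10 homeostatic astrocyte genes with enough UMIs, 0 passed a fold of 2 in either direction, with median log2 ratios of 0.27, 0.12 and 0.08. No filament or A2 gene had enough UMIs. *Ednrb*, the endothelin receptor of astrocytes, was at 200 CPM in the control and 311 CPM in the CKO, a ratio of 1.55 (1.27 to 1.89).

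Genes with the most similar levels over the 32 retinal and brain labels are given for 9 of the gliosis genes by Pearson correlation of log2(CPM + 1). This is a description over labels that share libraries. For *Gfap* they were *Lcat* (r = 0.886), *Ndrg2* and *Cbs*, and *Serpina3n* ranked 15 (r = 0.820). For *Vim* they were *Slc39a1* (r = 0.942), *Nr2f6* and *Anxa5*. *Nes* was most like *Tagln2* (r = 0.983), *Ifitm3* and *Capg*, with *Osmr* at rank 46 (r = 0.910). *Osmr* was most like *Mical1* (r = 0.953), *Epha2* and *Ccn1*, and *Stat3* most like *Scaf11* (r = 0.948), *Lims1* and *Commd1*. For *Cp* they were *Vwa5a* (r = 0.879), *Pdgfrl* and *Slc7a2*, and for *Fgf2* *5930430L01Rik* (r = 0.925), *Tead3* and *Llgl2*. *Edn2* was most like *A930031H19Rik* (r = 0.996), *Gm13583* and *Gm33843*, and *Lcn2* most like *Slc10a6* (r = 0.917), *Ifit1* and *Raet1e*.

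Upstream sequences of the genes were searched for short motifs, since several of them were higher together in CKO glia. The RefSeq promoter table of build GRCm38.p6 held all 10 genes, with 11 promoters, and the 250 bases before each start were searched on both strands. The STAT motif TTCNNNGAA was in 0 of the 11, and in 7.02% of all 32851 promoters. The AP-1 motif TGANTCA was in 1, of *Cp*, and in 6.75% of all promoters. The hypoxia motif ACGTG was in 0 and in 16.6% of all, and the TATA motif TATAAA was in 2, of *Cp* and *Vim*, and in 12.4% of all. A match is a description of letters, and a missing match says only that these letters are not in this window.

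Windows around 2 of the matches are shown 5′ to 3′ with the motif in capitals, at GRCm39 positions found by exact match. That of *Cp* with the AP-1 motif, 177 bases before the upstream one of its 2 starts, is at chr3:20011031-20011057 on the plus strand, and that of *Vim* with the TATA motif, 32 bases before the RefSeq start, at chr2:13579080-13579105 on the plus strand. The RefSeq start of *Vim* lies inside the annotated gene, and its window overlaps annotated exons. The upstream sequence of *Edn2*, at chr4:120018153-120018402 on the plus strand, is shown in full because this gene had 0 UMIs in the control retina, and it holds 0 of the 4 motifs at 55.6% GC.
Cp: atgacatattTGATTCAtttttccttg
Vim: ctaacagtgtTATAAAagcagcgccc
Edn2: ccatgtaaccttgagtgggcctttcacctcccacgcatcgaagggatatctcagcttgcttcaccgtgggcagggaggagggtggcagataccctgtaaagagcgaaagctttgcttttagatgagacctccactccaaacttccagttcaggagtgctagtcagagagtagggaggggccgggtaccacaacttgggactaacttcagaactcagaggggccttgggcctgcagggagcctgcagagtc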

How the data were processed

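The values deposited by the authors are counts, as whole UMIs per gene and nucleus, with the authors' cell type label, batch and kit for each nucleus. Per the paper, reads were processed with PIPseeker on GRCm39, CellBender and SOLO, while the labels name mm10 and Seurat, and which build the matrices used is not given there. UMIs were summed per label and library. The 10 genes, the gene lists and the markers were chosen with earlier results of these data known. Each of the 10 genes was named in each comparison, and of a list up to 3 genes with the most UMIs, since none passed the test. List genes named for an unadjusted p or for a brain ratio past 2 were chosen after their values had been seen. Sums of labels with at least 10 nuclei per library and genes with at least 30 UMIs, in at least 4 libraries, were fitted with edgeR 4.0.16 (quasi-likelihood, TMM factors, kit as a covariate, Benjamini-Hochberg adjustment, threshold 0.05) in R 4.3.3, after the fit had been tested on simulated data, with DESeq2 1.42.0 as an alternative. In the simulated data, with a dispersion of 0.05, edgeR recovered 18% of genes changed by a log2 fold of 1 in Müller glia and 2% in retinal astrocytes. For a log2 fold of 2 it recovered 83% and 40%. A gene that was not called may therefore still differ. Other alternatives changed the filter, the covariate, the libraries or the nuclei. Fits of labels other than Müller glia and retinal astrocytes, the batch as covariate in astrocytes the means by *Xist*, the means without the highest library, the labels counted without replicate 4 and the markers without *Aldh1l1* were added after seeing the data. Brain ratios had no pseudocount, list medians of log2 ratios 0.5 UMIs, and intervals are exact conditional binomial for ratios, exact Poisson for levels and exact binomial for shares, at 95%. A floor is 3 UMIs in the library or sum it refers to. Ratios within a label were compared over libraries, never over nuclei. Sums, intervals and figures were made with scipy 1.17.1, pandas 2.3.3, numpy 2.4.6 and matplotlib 3.10.9 on Python 3.11.15.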

Additional observations from a re-analysis of the deposited data

Results flagged for a closer look

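Of 29 groups of CKO libraries, 8 held 1 library far from the others, measured as its gap to the nearest library over the range of the group. The limit used is passed by about 1 in 20 groups of independent normal values. Several of these groups hold few UMIs and all reuse the same libraries, so that rate does not apply to them. How many groups chance would flag here is not known. In Müller glia, *Lcn2* was at 7.97 CPM in replicate 3 with the next library at 3.80 CPM (0.523 of the range), *Serpina3n* at 9.34 CPM in replicate 5 with the next at 4.56 CPM (0.511), and *Edn2* at 21.5 CPM in replicate 2 with the next at 11.3 CPM (0.475). In retinal astrocytes, *Nes* was at 269 CPM in replicate 2 with the next at 93.0 CPM (0.654), and *Lcn2* at 294 CPM in replicate 5 with the next at 73.2 CPM (0.751). In rods, *Serpina3n* was at 1.32 CPM in replicate 1 with the next at 0.421 CPM (0.680), *Cp* at 2.87 CPM in replicate 11 with the next at 0.913 CPM (0.681), and *Edn2* at 65.4 CPM in replicate 5 with the next at 35.0 CPM (0.537).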

How the results depend on the processing

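For Müller glia, where edgeR called 2 genes, the count was 106 by DESeq2, 11 with no filter on low counts, 16 with the control's batch alone, and 1 with no covariate, with the batch in place of the kit, with the version 4 kit alone, without replicates 4 and 5, and without nuclei that held astrocyte or immune marker UMIs. Leaving out 1 CKO library at a time gave 1 to 7. Gliosis genes called were 2 by DESeq2 and 0 to 0 with 1 library left out. For retinal astrocytes, where 0 genes were called, the count was 1 by DESeq2, 9 with no filter, 1 with the batch in place of the kit (added after seeing the data), 1 with all libraries, and 0 to 4 with 1 library left out. Gliosis genes called there were 1 by DESeq2, 1 with no filter, 1 with the batch in place of the kit, and 0 to 1 with 1 library left out. For rods, a fit added after seeing the data with 0 called, DESeq2 called 225 genes and 3 gliosis genes, the batch in place of the kit gave 1, and leaving out 1 library gave 0 to 5. In rods, with 1 library left out, the log2 fold change of *Vim* ran from -0.90 (without replicate 1) to 0.44, and that of *Cp* from -0.17 (without replicate 7) to 0.80. In the brain 1392 genes passed the fold of 2, of which 534 were left with at least 50 UMIs. A fold of 1.5 was passed by 2588 genes. The split of 508 higher and 884 lower became 320 and 1181 with TMM factors and turned to 1288 higher and 515 lower with nuclei of at least 1000 UMIs. The brain ratio of *Gfap* was 2.12 with TMM factors and 4.27 with nuclei of at least 1000 UMIs. Of the values of single genes, 393 kept their direction and their side of the threshold or moved by less than their error, 9 passed the threshold under an alternative alone, 2 moved (the brain ratios of *Gfap*) and 2 turned their direction (*Vim* and *Cp* in rods). Of the counts and shares over each comparison, 74 kept within their limits and 34 moved. The causes were not tested. No paired analysis was possible because there was 1 control library per tissue. The control held 12 retinal astrocytes, which limits that comparison.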
